A study of Mus musculus with 170 samples.

Results

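The hearts of mice given particles from flaming peat were compared with the hearts of mice given saline, 24 h after the dose. These 12 libraries, 6 in each group, were taken by their labels on tissue, treatment and time from the 170 libraries of the series. All animals were females of CD-1, an outbred stock of laboratory mice. The exposed group, labelled PeatFlame, took 50 µL of saline with condensed particulate matter at 2 mg/mL into the airway from the back of the throat, a dose of 100 µg. The group labelled Saline took the vehicle. RNA was read from heart with TempO-Seq, in which paired detector probes are joined on their target RNA and counted. Which part of each heart was sampled is not described in the labels. The rows of the table carry a probe number, as TempO-Seq rows do. Hearts of 3 other smokes, PeatSmolder, RedOakFlame and RedOakSmolder, with 6 libraries each, carried the same plate number in their titles and shared the estimate of spread. No allele or transgene is named in the labels, and p-values measure the spread between single animals of each group.

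The particles were given to the airway, so the heart lies outside the route of dosing. The heart holds cardiomyocytes, which contract, among many endothelial cells and fibroblasts. Immediate early genes are switched on within minutes of a stimulus and soon decay. Krüppel-like factor Klf2 is a transcription factor of endothelium that responds to blood flow, Jag1 is a membrane ligand of the Notch receptors, and Btg2 is an antiproliferative gene that p53 and growth signals induce.

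The 12 libraries held 5.68 M to 7.2 M counts each. Totals were 6.74 M ± 0.34 in PeatFlame and 6.46 M ± 0.48 in Saline (SD, n = 6 each, exact two-sided permutation p = 0.29). More genes were detected in PeatFlame hearts, 13273 to 13853 against 13187 to 13503 (exact two-sided permutation p = 0.0195, where 0.00216 is the smallest possible). Heart muscle genes marked every library as heart. Tnnt2 lay between 5187 and 6994 CPM (counts scaled by library total and a TMM normalization factor), and Myl2 between 5718 and 11366. The lymphocyte gene Cd3e was at most 0.97 CPM, and the lung epithelial genes Sftpc and Scgb1a1 at most 3.69 and 17.5 CPM.

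3 of the 6 PeatFlame hearts stood apart by atrial muscle genes. Myl7, the atrial regulatory light chain, was at 654, 1542 and 2134 CPM in PeatFlame replicates 1, 2 and 4. The other PeatFlame hearts held 0.647, 3.93 and 5.07 CPM of Myl7, and the saline hearts 1.6 to 8.5. Myl4, the atrial essential light chain, ran from 9.84 to 1221 CPM in PeatFlame and from 8.13 to 22.9 in Saline. Mybphl, another gene of atrial muscle, reached 80.9 CPM in PeatFlame and 0.163 in Saline. Of all 30 hearts 7 exceeded 100 CPM of Myl7: 3 in PeatFlame, 2 in PeatSmolder, 1 in RedOakFlame, 1 in RedOakSmolder and 0 in Saline. Over the 9 atrial marker genes in the table, of 10 listed, the summed level was 121.7 to 4254 CPM in PeatFlame and 146 to 215 in Saline. The called genes and the lists that moved most are therefore given with and without all 7.

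**Figure D1:**
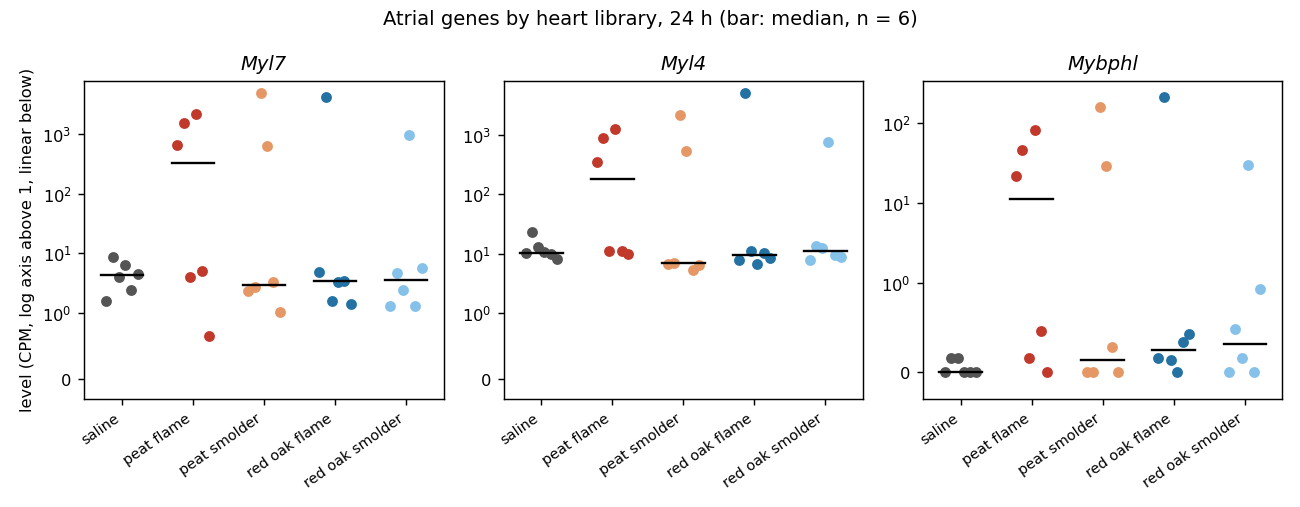
Levels of 3 atrial genes (CPM, log axis above 1 and linear below) in each of the 30 heart libraries, by group, with the bar at the group median. High points sit at 3 of 6 PeatFlame hearts and at 0 of 6 Saline hearts.

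Of 11179 genes tested, 4 rose and 1 fell in PeatFlame hearts at an adjusted p under 0.05, which is 0.0447% of the genes tested. Those that rose were Btg2, Jag1, Klf2 and Dock10, and the one that fell was the histone gene Hist1h2bk. An unadjusted p under 0.05 was reached by 628 genes in the higher direction (5.62%) and 675 in the lower (6.04%). Every PeatFlame heart lay above every saline heart for 42 genes (0.376%) and below for 18 (0.161%). A list count at an unadjusted p under 0.05 with all hearts is to be read against the shares 5.62% and 6.04%. Without the 7 hearts high in Myl7 the shares were 6.5% higher and 9.13% lower of 11339 genes.

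Btg2 was found at 21.8, 27.7 and 38.1 CPM in saline hearts (lowest, median, highest) and at 39.8, 51.6 and 62.6 CPM in PeatFlame hearts. Each exposed heart was above each saline heart. The log2 change was 0.87 ± 0.15 (SE, n = 6 per group, edgeR adjusted p = 0.0329). Without the 7 hearts high in Myl7, which leaves 3 PeatFlame hearts, the log2 change of Btg2 was 1.08 (adjusted p = 0.0264). Both probes of Btg2 gave positive values, with log2 changes of 0.79 and 1.12.

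Jag1 was at 5.25, 5.98 and 7.31 CPM in saline hearts and at 10.1, 10.4 and 15.4 CPM in PeatFlame hearts. The groups did not overlap, and 1 PeatFlame heart stood well above the median of its group. The log2 change was 0.94 ± 0.18 (adjusted p = 0.0475). Without the hearts high in Myl7 the log2 change was 0.99, with an adjusted p of 0.0672. Jag1 was read by 1 probe.

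Klf2 was at 33.9, 46 and 56.9 CPM in saline hearts and at 59.4, 81.1 and 92.8 CPM in PeatFlame hearts. The lowest exposed heart lay just above the highest saline heart. The log2 change was 0.80 ± 0.16 (adjusted p = 0.0475), and 0.98 without the hearts high in Myl7 (adjusted p = 0.0522). The probes of Klf2 had log2 changes of 0.81 and 0.54.

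Dock10, a guanine nucleotide exchange factor, was at 7.1, 7.76 and 10.4 CPM in saline hearts and at 10.8, 14.3 and 15.1 CPM in PeatFlame hearts. The groups did not overlap. The log2 change was 0.73 ± 0.15 (adjusted p = 0.0475). Without the hearts high in Myl7 the log2 change of Dock10 was 0.68, and its adjusted p was 0.155. The probes of Dock10 had log2 changes of 0.79 ± 0.165 and 0.45 ± 0.293 (SE, edgeR unadjusted p = 3.19e-05 and 0.137).

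Hist1h2bk, a gene of core histone H2B, was at 24.2, 35 and 75.5 CPM in saline hearts and at 17.1, 20.1 and 27.9 CPM in PeatFlame hearts. The groups overlapped, with 5 of 6 exposed hearts below all saline hearts and Saline replicates 1 and 2, at 62.7 and 75.5 CPM, far above the rest. Without Saline replicate 2 the log2 change was -0.87 (adjusted p = 0.269). The log2 change was -1.09 ± 0.22 (adjusted p = 0.0475), and -1.15 without the hearts high in Myl7 (adjusted p = 0.152). Histone genes have near-identical copies, so counts of a single one are uncertain.

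**Figure D2:**
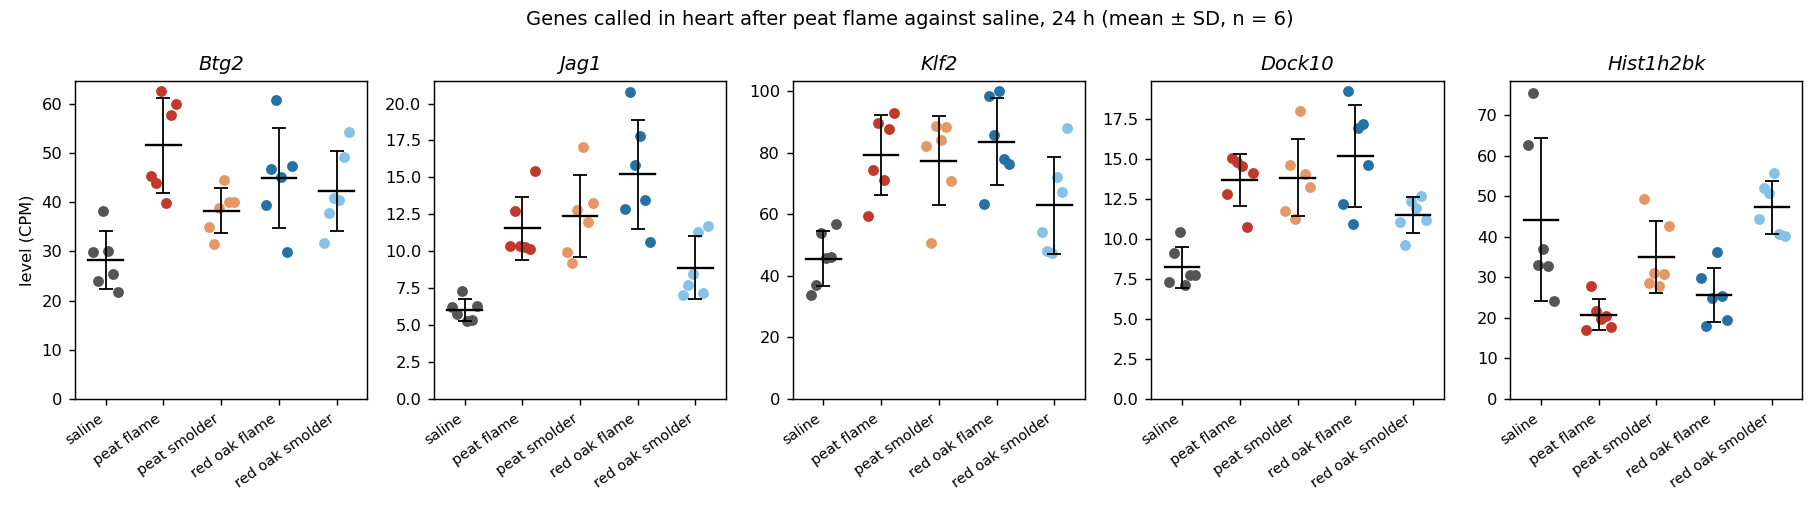
Levels (CPM, linear axes from 0) of the 5 genes that passed the test, in each heart library of the 5 groups, with mean ± SD (n = 6). PeatFlame points lie above all Saline points for Btg2, Jag1, Klf2 and Dock10, and overlap them for Hist1h2bk.

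The adjusted p-values of the 5 genes, 0.0329 to 0.0475, lay near the threshold. In a fit with a term for the detected gene number 0 genes passed, while the log2 changes were 0.72 for Btg2, 0.70 for Jag1, 0.56 for Klf2, 0.60 for Dock10 and -0.97 for Hist1h2bk. Leaving out 1 saline or PeatFlame heart at a time gave between 0 and 5 genes.

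The RefSeq promoters of Btg2, Jag1 and Klf2, the 3 genes given in advance with this comparison, are shown. In each of these genes, as in Dock10, every PeatFlame heart lay above every saline heart. Each line is the 250 bases before the annotated start (GRCm38.p6), 5′ to 3′ on the gene's strand, with capitals marking a motif match. The windows are chr1:134079156-134079405, minus strand, for Btg2, chr2:137116521-137116770, minus strand, for Jag1 and chr8:72318812-72319061, plus strand, for Klf2.
Btg2: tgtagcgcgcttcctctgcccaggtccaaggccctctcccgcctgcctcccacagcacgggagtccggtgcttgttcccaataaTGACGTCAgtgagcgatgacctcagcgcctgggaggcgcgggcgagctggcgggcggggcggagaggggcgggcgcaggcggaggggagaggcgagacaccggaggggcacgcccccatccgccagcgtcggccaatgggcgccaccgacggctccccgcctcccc
Jag1: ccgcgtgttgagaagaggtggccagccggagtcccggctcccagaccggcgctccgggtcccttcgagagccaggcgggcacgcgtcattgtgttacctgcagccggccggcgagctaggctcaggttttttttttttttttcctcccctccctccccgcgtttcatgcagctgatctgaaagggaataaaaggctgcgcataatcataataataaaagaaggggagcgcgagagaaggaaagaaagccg
Klf2: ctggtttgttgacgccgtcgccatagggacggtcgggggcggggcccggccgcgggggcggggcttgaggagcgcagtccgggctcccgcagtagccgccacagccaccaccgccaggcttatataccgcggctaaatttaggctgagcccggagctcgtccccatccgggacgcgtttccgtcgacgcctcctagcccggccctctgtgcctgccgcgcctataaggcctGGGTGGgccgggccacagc

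The motifs searched on both strands were the cyclic AMP response element TGACGTCA, the AP-1 site TGANTCA, the E-box CACGTG, the KLF box CCACCC, the NF-kB site (GGGA, 4 bases of any kind, then CC) and the CArG box by name. In the Btg2 window the cyclic AMP response element lay at -166 to -159 from the start, and 1.55% of all 32851 promoter windows held one. The KLF box of the Klf2 window lay at -19 to -14, and 28.1% of all windows held one. Jag1 had 0 matches. Of the 18 tested genes that the naming rule or a call put forward, 14 had an entry, with 19 windows, of which 1 held the cyclic AMP response element, 0 the AP-1 site (6.75% of all windows), 2 the E-box (6.02%), 5 the KLF box, 1 the CArG box (1.47%) and 6 the NF-kB site (17.6%). These are matches of letters, not sites shown to be bound.

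Immediate early genes lay on the higher side. Of 30 listed, 22 were tested, and Btg2 and Klf2, given in advance with this comparison, rose. Both count in every value of this list, and values without them were not computed. Of the 22, 11 were higher and 0 lower at an unadjusted p under 0.05. Their median log2 change was 0.43, against 0.01 over all genes tested. Without the hearts high in Myl7 the median was 0.64, with 12 of 23 higher and 0 lower. Their summed level was 563, 631 and 746 CPM in saline hearts and 729, 779 and 852 in PeatFlame hearts, with 5 of 6 exposed hearts above all saline hearts.

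Among those that did not pass, Fos, a subunit of AP-1, was at 1.25, 2.53 and 8.09 CPM in saline hearts and 5.97, 10.4 and 14.9 CPM in PeatFlame hearts. Its log2 change was 1.66 ± 0.51 (adjusted p = 0.284), and its groups overlapped. Fosl2, another AP-1 subunit, had a log2 change of 1.01 ± 0.31 (adjusted p = 0.28). Zfp36, which binds and destabilises cytokine mRNAs, had a log2 change of 0.92 ± 0.26 (adjusted p = 0.223). Nr4a1, an orphan nuclear receptor, was at 0.535 to 5.09 CPM in saline hearts and 5.97 to 14.5 in PeatFlame hearts, with no overlap (log2 change 1.5 ± 0.58, adjusted p = 0.354). Other members of the list moved little. Egr1 had a log2 change of 0.255 ± 0.377, the AP-1 subunit Jun of 0.097 ± 0.154 and Ier3 of -0.256 ± 0.289 (edgeR adjusted p from 0.767 to 0.845). Of the 22 tested, 20 had a positive and 2 a negative log2 change. The genes named here, like the others outside the rule that are named from lists, were chosen after their values were seen.

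In the Notch pathway, where a ligand on one cell activates a receptor on its neighbour, Jag1 alone of 23 tested ligands, receptors and modulators passed (26 listed). The next smallest p was that of Numb, an inhibitor of the receptors, with a log2 change of 0.33 ± 0.12 (adjusted p = 0.324). The receptor Notch1 had a log2 change of 0.37 ± 0.25 and the ligand Dll4 of 0.01 ± 0.14. Of 9 tested Notch target genes 0 passed and 1, Heyl, had an unadjusted p under 0.05 (log2 change 0.83 ± 0.24, adjusted p = 0.263). Hes1, the classical target, had a log2 change of 0.11 ± 0.26.

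Klf2 was 1 of 11 Klf genes tested (17 listed), and the only one to pass. Klf4, a near relative that shares its endothelial roles, was at 5.56, 6.72 and 7.72 CPM in saline hearts and 7.61, 10.3 and 12.6 in PeatFlame hearts (log2 change 0.57 ± 0.22, adjusted p = 0.354). Of 18 tested genes known to depend on Klf2 in endothelium, 0 passed, 4 were higher and 2 lower at an unadjusted p under 0.05. The endothelial nitric oxide synthase Nos3 had a log2 change of 0.18 ± 0.17 and thrombomodulin, Thbd, of 0.14 ± 0.12. The angiopoietin receptor Tek was at 83.5, 104.2 and 135.4 CPM in saline hearts and 110.9, 161 and 191 in PeatFlame hearts (log2 change 0.57 ± 0.15, adjusted p = 0.173). Of 24 genes of endothelial identity 4 were higher and 1 lower at an unadjusted p under 0.05, with a median log2 change of 0.16.

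Btg2 was the only 1 of 5 tested Btg and Tob genes to pass. Its closest relative Btg1 had a median of 122.7 CPM in saline hearts and 124.2 in PeatFlame hearts (log2 change 0.05 ± 0.09). Of 16 tested p53 target genes Btg2 alone passed, and the list median was -0.14 (-0.08 without the hearts high in Myl7). The cell cycle inhibitor Cdkn1a, a p53 target, had a log2 change of 0.27 ± 0.31.

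Among collagens and other matrix genes, 0 of 24 passed, 15 were higher at an unadjusted p under 0.05 and 0 lower, and all 24 had a positive log2 change. The median log2 change was 0.64, and 0.59 without the hearts high in Myl7, with 12 higher. The count was 9 without Saline replicate 4 or PeatFlame replicate 6, where 504 of 11178 and 500 of 11176 genes were higher. PeatFlame replicate 2 had the highest summed level of the 12 hearts, at 2778 CPM. Without it the count was 10, where 614 of 11176 genes were higher. The largest log2 change of the list was then 0.925, against 1.79 with all hearts. Without PeatFlame replicate 2 or 6, 1 of the 24 had a negative log2 change. Mmp2, a gelatinase that cuts matrix, was at 49.5, 66.6 and 78.6 CPM in saline hearts and 61.4, 131.8 and 185 in PeatFlame hearts. Its log2 change was 0.90 ± 0.23 (adjusted p = 0.165), and 1.07 without the hearts high in Myl7, where it passed (adjusted p = 0.0337). Fbn1, the microfibril protein fibrillin, had a log2 change of 0.94 ± 0.26 (adjusted p = 0.223). Col1a1, a chain of type I collagen, was at 58.1, 77.8 and 148 CPM in saline hearts. In PeatFlame hearts Col1a1 was at 89.1, 189 and 272 CPM (edgeR adjusted p = 0.393).

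Fibroblast markers had positive values too, but their list is not independent of the matrix list. It holds the collagen genes Col1a1 and Col3a1. Of 11 tested, of 12 listed, 0 passed, 5 were higher and 0 lower at an unadjusted p under 0.05. The median log2 change was 0.49 (0.36 without the hearts high in Myl7, with 4 higher). Without PeatFlame replicate 2 it was 0.345, with 4 higher, where 614 of 11176 genes were higher. The summed level of the markers was 1640.0 to 2496 CPM in Saline and 1782 to 3826 in PeatFlame. Gsn, the actin-severing protein gelsolin, was at 197, 215 and 366 CPM in saline hearts and 329, 443 and 531 in PeatFlame hearts (log2 change 0.85 ± 0.19, adjusted p = 0.0888). Pdgfra, the growth factor receptor of fibroblasts, was at 63.9, 75.9 and 90.5 CPM against 83.2, 133.9 and 159.8 (log2 change 0.77 ± 0.18, adjusted p = 0.125). More cells of a type and more RNA per cell cannot be told apart in bulk tissue, and the part of fibroblast content in the matrix values was not tested.

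Genes of dividing cells lay on the lower side. Of 19 tested cell cycle genes 0 passed, 10 were lower and 0 higher at an unadjusted p under 0.05, and the median log2 change was -0.55 (-0.65 without the hearts high in Myl7, with 7 lower). Their summed level was 145, 159 and 251 CPM in saline hearts and 119.1, 132.6 and 148 in PeatFlame hearts, with 5 of 6 exposed hearts below all saline hearts. Saline replicate 2 was the highest, at 251 CPM against 145 to 188 in the other saline hearts. Without it 5 of 19 were lower and 0 higher, where 3.4% of 11278 genes were lower and 4.28% higher, and the median was -0.43. Ccnb1, the mitotic cyclin B1, was at 12.6 CPM in that heart, against 0.554 to 3.23 in the other saline hearts and 0.472 to 1.32 in PeatFlame hearts. Top2a, the topoisomerase of replicating cells, was at 3.86, 7.97 and 18.3 CPM in saline hearts and 2.61, 4.57 and 5.41 in PeatFlame hearts (log2 change -1.12 ± 0.47, adjusted p = 0.372), and without Saline replicate 2 its log2 change was -0.80. Bub1, a mitotic checkpoint kinase, was at 1.11, 1.75 and 6.7 CPM against 0, 0.223 and 1.42 (adjusted p = 0.125), where 3 counts in a library equal 0.417 to 0.528 CPM. Mki67, the proliferation marker, had a log2 change of -0.29 ± 0.48.

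Histone genes, which are transcribed mainly in DNA synthesis, were added as a list after Hist1h2bk had been seen. Of 46 listed, 39 were tested, 1 fell, 25 were lower and 0 higher at an unadjusted p under 0.05, and 38 had a negative log2 change. The median was -0.83, and -0.99 without the hearts high in Myl7 (23 of 40 lower). Without Saline replicate 2 the median was -0.50, with 16 of 39 lower and 0 higher. Hist1h1b, a linker histone gene, was at 1.11, 4.76 and 14.1 CPM in saline hearts and 0.46, 0.761 and 1.9 in PeatFlame hearts (log2 change -2.49 ± 0.55, adjusted p = 0.0889). Hist1h3a, a gene of histone H3, was at 7.76 to 31.5 CPM against 2.46 to 4.88, with no overlap (log2 change -1.64 ± 0.38, adjusted p = 0.108). The highest of these was Saline replicate 2, the other saline hearts reached at most 11.2 CPM, and without it the log2 change was -1.12 (adjusted p = 0.408). Summed over the list, levels were 785, 1016 and 1744 CPM in saline hearts and 668, 849 and 1103 in PeatFlame hearts, and these ranges overlapped.

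Genes of the ribosome and of the respiratory chain lay slightly lower. Of 28 tested ribosomal protein genes 13 were lower and 0 higher at an unadjusted p under 0.05, all 28 had a negative log2 change, and the median was -0.31. Of 28 nuclear genes of the respiratory chain 9 were lower and 0 higher, with a median of -0.23. All 8 mitochondrially encoded transcripts had negative values, with 1 lower and 0 higher at an unadjusted p under 0.05 and a median of -0.27. None of these genes passed. Without the hearts high in Myl7, 23 ribosomal protein genes were lower (median -0.49), 16 of the respiratory chain (median -0.36) and 7 of the mitochondrially encoded (median -0.52). The ribosomal count was 1 to 8 without Saline replicate 1, 2 or 4 or PeatFlame replicate 3, 4 or 6, and 22 without Saline replicate 5. Of all 11176 to 11179 genes, 380 to 624 were lower by that rule in the former settings and 929 in the latter. With all hearts 675 were lower. The mitochondrially encoded count was 0 without Saline replicate 1 and 5 without PeatFlame replicate 1. In these settings 386 of 11179 and 790 of 11175 genes were lower. Without Saline replicate 1 the log2 change of 1 of the 8 was positive. The respiratory count was 1 to 4 without Saline replicate 1, 2 or 4 or PeatFlame replicate 4 or 6, where 380 to 507 of all genes were lower. Summed ribosomal protein genes were at 18058 and 16902 CPM in Saline replicates 1 and 2, and at 9870.4 to 14426 in the other saline hearts. Rpl30 was at 434, 499.7 and 583.5 CPM in saline hearts and 343, 402 and 426 in PeatFlame hearts, with no overlap (log2 change -0.35 ± 0.10, adjusted p = 0.199). The ventricular light chain Myl2 was at 7562, 9060.1 and 11366 CPM against 5718, 7014 and 7663 (log2 change -0.42 ± 0.16, adjusted p = 0.347).

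**Figure D3:**
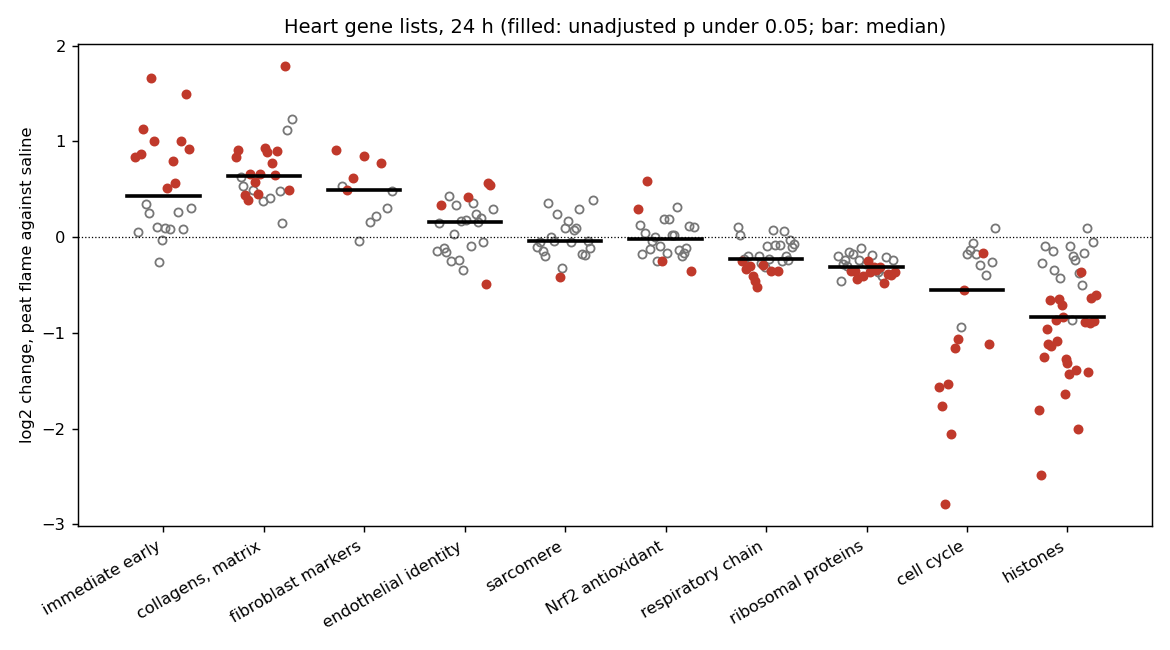
Log2 change of each tested member of 10 gene lists, PeatFlame against Saline hearts, with filled points at an unadjusted p under 0.05 and bars at the list median. Medians run from 0.64 for collagens and matrix to -0.83 for histones, which were listed after the values were seen.

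The genes of smallest p that did not pass were Frmd6, Btbd8, Enc1, Gsn, Hist1h1b, Lima1 and Serpina3n, with adjusted p from 0.0656 to 0.0889. Btbd8 was at 18.9 to 24.1 CPM in saline hearts and 29.3 to 35.4 in PeatFlame hearts, with no overlap (log2 change 0.58 ± 0.12). Enc1, an actin-binding Kelch protein, was at 2.95 to 4.98 CPM against 6.09 to 11.9, with no overlap (log2 change 1.16 ± 0.25). Serpina3n, an acute-phase protease inhibitor, was at most 0.369 CPM in Saline and 0.439 to 2.13 CPM in PeatFlame, so its levels rest on few counts.

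Markers of a strained or fasting heart did not pass. Nppa, the atrial natriuretic peptide, was at 60.6, 99.9 and 116.2 CPM in saline hearts and 34.4, 265 and 619 CPM in PeatFlame hearts (log2 change 1.68 ± 0.79, adjusted p = 0.417). The highest values of Nppa, 295, 428 and 619 CPM, were those of the 3 exposed hearts high in Myl7, and without such hearts its log2 change was 0.65. Nppb, the ventricular natriuretic peptide, ran from 196 to 1260.4 CPM in PeatFlame and 536 to 1503 in Saline (log2 change -0.22 ± 0.46). Pdk4, which restrains glucose oxidation, had a log2 change of -0.44 ± 0.30, and Angptl4, an inhibitor of lipoprotein lipase, of -1.01 ± 0.80. Lcn2, an iron-binding acute-phase protein, was at 4.8, 8.54 and 13.7 CPM against 10.4, 17.2 and 30.6 (log2 change 1.09 ± 0.28, adjusted p = 0.165).

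Genes that respond to smoke chemicals gave small values in the heart. Cyp1a1, induced by aromatic hydrocarbons, was too low to test, with 0 counts in 10 of the 12 hearts and at most 2 in any. A level up to 3 counts a library would be missed. Of 9 tested aryl hydrocarbon receptor targets 0 passed, and Tiparp had a log2 change of 0.10 ± 0.13. Of 24 tested antioxidant genes of Nrf2, 2 were higher and 2 lower at an unadjusted p under 0.05, with a median of -0.02 (0.05 without the hearts high in Myl7). G6pdx, the entry enzyme of the pentose phosphate pathway, was at 3.4 to 4.63 CPM against 4.92 to 6.86, with no overlap (log2 change 0.59 ± 0.20, adjusted p = 0.32), while Nqo1 had a log2 change of 0.03 ± 0.15.

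Inflammatory lists held 0 called genes. Of 21 interferon-stimulated genes 2 were higher and 0 lower at an unadjusted p under 0.05, of 13 NF-kB genes 4 higher and 1 lower, and of 14 chemokines and cytokines 2 higher and 1 lower. Without the hearts high in Myl7 these counts were 1 and 0, 5 and 1, and 2 and 1. The interferon list had a median of 0.27 with 17 of 21 positive, and a median of 0.06 without those hearts. Of 14 tested genes of the acute-phase list 3 were higher and 0 lower, with a median of 0.21. Without the hearts high in Myl7, 4 of these 14 were higher and 0 lower. Ccl7, a monocyte attractant, was at 2.8, 5.81 and 12.8 CPM in saline hearts and 2.13, 3.04 and 4.92 in PeatFlame hearts (log2 change -1.15 ± 0.36, adjusted p = 0.296). The summed macrophage and monocyte markers were 186 to 423 CPM in Saline and 189 to 347 in PeatFlame. Of 19 glucocorticoid-responsive genes 5 were higher and 0 lower, with a median of 0.27, and 9 were higher without the hearts high in Myl7. The clock output gene Dbp was at 366, 393 and 555 CPM in 3 PeatFlame hearts and at 76.5, 113.6 and 123.7 in the others, against 55.8 to 219 in Saline. The hour at which each heart was taken is not given in the labels, and its part in these values was not tested.

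Whether flaming peat differed from other smokes was tested by direct contrasts between exposed hearts. Against PeatSmolder 1 gene passed (0.00895% of 11179), against RedOakFlame 0 (0%, with 871 genes at an unadjusted p under 0.05 in edgeR and 0 called by DESeq2) and against the mean of the 3 other smokes 0 (0%, with 537 at an unadjusted p and 9 called by DESeq2). Against RedOakSmolder, a contrast added after the data were seen, 0 passed in edgeR (0%, with 1183 at an unadjusted p). The gene that separated the peat smokes was Uhrf1, a factor that carries DNA methylation through replication, chosen after its value was seen. Uhrf1 was at 0.129, 0.388 and 0.919 CPM in PeatFlame hearts, 1.41, 2.72 and 4.46 in PeatSmolder hearts and 0.739, 1.63 and 2.91 in saline hearts. The peat smokes did not overlap (log2 difference -2.56 ± 0.45, adjusted p = 0.0256), and these are levels of few counts. Without the hearts high in Myl7, 0 genes passed in this contrast.

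Cell cycle genes as a list also lay lower in PeatFlame than in PeatSmolder hearts, with 11 of 19 lower and 0 higher at an unadjusted p under 0.05 and a median log2 difference of -0.83. In this contrast 3.35% of all genes tested were higher and 3.98% lower by that rule. Top2a was at 2.61 to 5.41 CPM in PeatFlame and 3.29 to 28.1 in PeatSmolder hearts (log2 difference -1.80 ± 0.46, adjusted p = 0.411). For histones 19 of 39 were lower and 0 higher, with a median of -0.61. Set against the same saline hearts, the histone median was -0.83 for PeatFlame, -0.79 for RedOakFlame, -0.21 for PeatSmolder and 0.07 for RedOakSmolder.

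Btg2, Jag1, Klf2 and Dock10 did not pass in any of these 4 contrasts. For Btg2 the log2 difference from PeatSmolder was 0.43 ± 0.15 (adjusted p = 0.589) and from RedOakFlame 0.20 ± 0.15 (adjusted p = 0.773). For Jag1 these differences were -0.10 ± 0.17 and -0.40 ± 0.17, for Klf2 0.03 ± 0.16 and -0.08 ± 0.16, and for Dock10 -0.02 ± 0.14 and -0.15 ± 0.14. From RedOakSmolder the log2 difference was 0.28 ± 0.15 for Btg2, 0.37 ± 0.18 for Jag1, 0.33 ± 0.16 for Klf2 and 0.25 ± 0.14 for Dock10 (adjusted p from 0.459 to 0.532). Jag1 levels had a median of 12.4 CPM in PeatSmolder, 14.6 in RedOakFlame and 8.07 in RedOakSmolder hearts, against 10.4 in PeatFlame and 5.98 in Saline hearts. In that order PeatFlame, PeatSmolder and RedOakFlame overlapped one another.

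Set against the same 6 saline hearts, 480 genes passed for PeatSmolder (4.29%), 1344 for RedOakFlame (12%) and 0 for RedOakSmolder (0%, with 700 genes at an unadjusted p under 0.05 in edgeR), against 5 for PeatFlame. These comparisons share their controls. The median log2 change of the matrix list was 0.64 for PeatFlame, 1.02 for PeatSmolder, 1.22 for RedOakFlame and 0.32 for RedOakSmolder. The median of the cell cycle list was -0.55 for PeatFlame, 0.09 for PeatSmolder, -0.17 for RedOakFlame and 0.22 for RedOakSmolder. In the same order, immediate early genes had medians of 0.43, 0.35, 0.53 and 0.31, and fibroblast markers 0.49, 0.60, 0.72 and 0.25. Ribosomal protein genes had -0.31, -0.39, -0.545 and -0.03, and the respiratory chain -0.23, -0.28, -0.52 and -0.07. For PeatFlame against PeatSmolder the immediate early median was 0.01, with 1 higher and 1 lower at an unadjusted p under 0.05.

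The lungs of the same 12 animals were measured at the same time, and lung is where the particles were placed. In a joint fit of 12978 genes, 6 passed in lung (0.0462%), among them Timp1, an inhibitor of matrix proteases, with a log2 change of 3.0 ± 0.41 (edgeR adjusted p = 0.00185). In the heart 0 genes passed in this joint fit, with 454 at an unadjusted p under 0.05 and a smallest edgeR adjusted p of 0.0945. Timp1 had a log2 change of 0.52 ± 0.46 in the heart. The joint fit had no term for the animal, although each animal gave both tissues. The difference between the tissues in the effect of flaming peat was called for 0 genes (0%), also in the fit paired by animal. For this difference 689 genes had an unadjusted p under 0.05 in edgeR, and 12 were called by DESeq2. Without the animal term the smallest edgeR adjusted p was 0.0732.

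That p belonged to Pdgfra and Ccl7, whose values had opposite signs. In the scale of the joint fit Pdgfra was at 74.7 to 106.2 CPM in saline hearts and 98.1 to 191 in PeatFlame hearts, but at 530 to 809 CPM in saline lungs and 338 to 552 in PeatFlame lungs (heart minus lung 1.43 ± 0.25). Ccl7 was at 3.37 to 15.1 CPM in saline hearts and 2.51 to 5.93 in PeatFlame hearts, and at 0.186 to 1.92 CPM in saline lungs and 2.55 to 14.8 in PeatFlame lungs (heart minus lung -4.30 ± 0.78). Without a plate term these 2 genes passed.

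For Btg2 the lung levels were wide, 98.7, 264 and 632 CPM in Saline and 136.9, 486 and 1032 in PeatFlame, with a log2 change of 0.90 ± 0.44 (adjusted p = 0.674). The difference between tissues for Btg2 was -0.03 ± 0.62. Jag1 was at 55.5, 67.8 and 83.2 CPM in saline lungs and 46.1, 74.1 and 102.1 in PeatFlame lungs, so its groups overlapped there (heart minus lung 0.82 ± 0.27, adjusted p = 0.773). Klf2 was at 173 to 265 CPM in saline lungs and 219 to 346 in PeatFlame lungs (heart minus lung 0.49 ± 0.25, adjusted p = 0.901). Dock10 had a log2 change of -0.48 ± 0.21 in lung (adjusted p = 0.674) and a heart minus lung value of 1.21 ± 0.31 (adjusted p = 0.408).

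**Figure D4:**
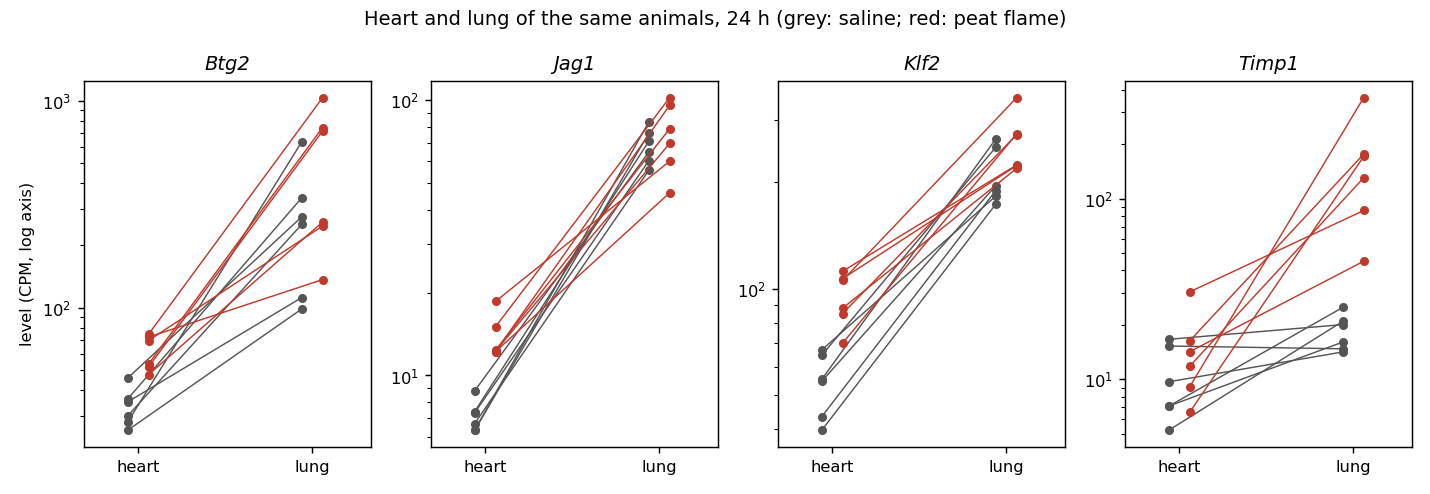
Levels (CPM, log axis) of 4 genes in the heart and lung of the same animals, with a line for each animal, grey for Saline and red for PeatFlame (n = 6 each). Red and grey points separate in heart for Btg2, Jag1 and Klf2, and in lung for Timp1.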

How the data were processed

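TempO-Seq counts of 12 hearts, 18 hearts of other smokes and the lungs of the same 12 animals were used as deposited. The deposited whole-number counts of 30146 probe rows were made by the authors. Bowtie and DESeq2 are named in the submitters' processing notes. Their versions and roles, like the genome build, were not given in the sources used here. TempO-Seq and a QuantSeq kit are both named per the labels' protocols, and the rows carry probe numbers, as in TempO-Seq. Probe counts were added up per gene symbol, which gave 21450 symbols (15160 with a single probe). Genes passing filterByExpr were tested with edgeR 4.0.16 in R 4.3.3 (TMM factors, robust quasi-likelihood F test, Benjamini-Hochberg over all genes tested, called under 0.05) in 1 fit of 30 hearts, all with plate 2 in their titles. CPM use TMM factors, and standard errors are log2 changes divided by the root of F. The joint heart and lung fit had group and plate terms. Heart and lung were paired by the animal number of the titles, and the block by animal was an alternative. Library measures were compared by an exact permutation test. Limits of 3 counts cover counting error only.

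Genes named are Jag1, Btg2, Klf2, the cardiac and smoke markers Nppa, Nppb, Pdk4, Angptl4, Lcn2 and Cyp1a1, the called genes and, since fewer than 6 were called, the 12 of smallest p. Members and lists were chosen with earlier results of these data known. Alternatives were DESeq2 1.42.0 (its factors, or its Wald test), no filter, single probes, only the groups compared, leaving out each library, and a term for detected genes. Leaving out hearts over 100 CPM of Myl7, Myl7 as a covariate, and the contrast with RedOakSmolder were added after the data were seen. The tests were tested on simulated data.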

Additional observations from a re-analysis of the deposited data

Results flagged for a closer look

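Of 36 sets of 6 libraries examined, 4 had a library far from the other 5, and chance gives about 1 in 20 such sets. Angptl4 was at 62.8 CPM in Saline replicate 2 against 16.8 to 32.7 in the other saline hearts. The same gene was at 47.7 CPM in PeatFlame replicate 3 against at most 14.1 in the other exposed hearts. Gsn was at 366 CPM in Saline replicate 1 against 197 to 248 in the others, and that heart lay within the PeatFlame range. Lima1 was at 6.47 CPM in Saline replicate 5 against 3.86 to 4.51. The peat smokes differed by a direct test in Uhrf1, with a log2 difference of -2.56 for PeatFlame minus PeatSmolder. Uhrf1 did not pass against Saline (-1.76 ± 0.47, adjusted p = 0.176).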

How the results depend on the processing

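For PeatFlame against Saline, where 5 genes passed, 5 passed with DESeq2 size factors, 3 without the filter, 0 with detected genes as a covariate, 1 with Myl7 as a covariate, 2 without the hearts high in Myl7, 0 with single probes, 0 with only the groups compared and 35 with the DESeq2 Wald test, which included all 5. Leaving out 1 library gave 0 to 5. It gave 0 without Saline replicate 2 or 5 or PeatFlame replicate 3 or 6, 1 without PeatFlame replicate 2 or 4, and 2 without Saline replicate 1 or 4 or PeatFlame replicate 1. Against PeatSmolder, where 1 passed, the counts were 2 with Myl7 as a covariate, 0 without the hearts high in Myl7, 0 with only the groups compared and 0 to 1 with a library left out. Against RedOakFlame 2 passed with Myl7 as a covariate. Against the mean of the other smokes 9 passed with DESeq2. For heart minus lung, 0 passed in the fit paired by animal (replicate block), as without it, 2 without a plate term, 12 with DESeq2 and 0 to 3 with an animal left out. The hearts of PeatFlame and Saline come from different animals, so no pairing was possible there. The 5 called genes kept their direction in all 20 alternatives. Nppb reversed to 0.40 with detected genes as a covariate. The cause of these shifts was not tested. Genes under about 1 CPM rest on few counts.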

Other observations

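Bmp4, a growth factor of the bone morphogenetic family, was at 1.66, 3.49 and 3.7 CPM in saline hearts and 3.66, 5.31 and 8.63 in PeatFlame hearts (log2 change 0.90 ± 0.24, edgeR adjusted p = 0.176). Sema6a, a membrane semaphorin, was at 9.8, 14.1 and 24.2 CPM against 22, 26.4 and 33.5 (log2 change 0.84 ± 0.20, adjusted p = 0.108). In both genes the lowest exposed heart lay within the saline range. Stmn1, a microtubule-destabilising protein of dividing cells, was at 21.5 to 34.6 CPM in saline hearts and 15.7 to 19.9 in PeatFlame hearts, with no overlap (log2 change -0.51 ± 0.12, adjusted p = 0.133). None of these genes passed, and they were chosen after their values were seen.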
